A study of Homo sapiens with 14 samples.

Results

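The transcriptome of CWR22RV1 prostate cancer cells treated with Fucotrim I was compared directly with that of cells treated with Fucotrim II. CWR22RV1 is an established human prostate cancer cell line. The comparison used 5 of the 14 RNA-seq libraries of the series, 3 from cells given 30 µM Fucotrim I and 2 from cells given 60 µM Fucotrim II, each for 72 h. The deposited count tables of both inhibitors were joined on the NCBI gene number, and no vehicle library entered the contrast. 3 libraries of cells kept for 72 h with DMSO, the vehicle, served to say which inhibitor had changed a gene. The study describes 3 biological repeats per condition, whereas the Fucotrim II group used here holds 2. The concentrations differed, so an effect of the compound and an effect of its concentration cannot be told apart, and every value below belongs to the treatment as it was given. All libraries came from a single cell line, and this was the only pair of compounds compared.

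Cells make most of their GDP-fucose, the donor for all fucosylation, from GDP-mannose, and GMDS encodes the dehydratase of the first step. The Fucotrims, sugar phosphate analogues built on rhamnose, are meant to inhibit that step. GDP-mannose is also the mannose donor for the lipid-linked oligosaccharide from which N-glycans are made in the endoplasmic reticulum (ER). When proteins fail to fold there, cells switch on the unfolded protein response. Its ATF6 and IRE1-XBP1 branches raise ER chaperones and the machinery of ER-associated degradation (ERAD), and its PERK branch raises the transcription factor ATF4, which controls amino acid supply and CHOP (DDIT3). The genes that drive mitosis form another well known programme. They are switched on together in G2 and M phase and are silent in resting cells.

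Depth differed between the treatments. The counts on genes added up to 13866690, 14947100 and 12553094 in the Fucotrim I libraries and to 18183854 and 19099194 in the Fucotrim II libraries, with 17689717, 17453956 and 15398797 in DMSO. With the counts of the 5 Fucotrim libraries thinned at random to the smallest of these totals, 1203 genes were called in place of 1354, and 1144 genes were shared by both sets. Mitochondrially encoded transcripts made up 8.67%, 11.9% and 14.2% of the counts with Fucotrim I, 17.0% and 12.2% with Fucotrim II and 5.98% to 7.03% in DMSO, so that the compounds overlapped in this share. Without these transcripts, 1367 genes were called, of which 1339 were among the 1354. The first principal component, with 57.9% of the variance, placed the Fucotrim I libraries between DMSO and Fucotrim II. The cells carried the markers of luminal prostate cells. All 12 luminal markers passed the filter on low counts, and their summed level was 3608 to 3682 CPM (counts scaled to library size with TMM factors) with Fucotrim I and 3486 and 3795 CPM with Fucotrim II, with KRT8 the most abundant. Of 8 basal or neuroendocrine markers, CHGB and SYP passed the filter. KRT5, KRT14, TP63, CHGA and INSM1 had at most 2 counts in any of the 8 libraries. Of 15 stromal, endothelial and leukocyte markers, 5 passed the filter, with 22.7 to 27.4 CPM in sum with Fucotrim I and 33.7 and 27.2 CPM with Fucotrim II, most of it from COL1A1, and none of the 5 differed between the compounds by the test below (median log2 fold change 0.09).

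Of 14718 genes tested, 1354 (9.20%) differed between the inhibitors at a Benjamini-Hochberg adjusted p-value under 0.05 in edgeR's quasi-likelihood test, and such genes are said to be called. Log2 fold changes are Fucotrim I minus Fucotrim II throughout, so that negative values mean a higher level with Fucotrim II. Of the called genes, 506 were higher with Fucotrim I (3.44% of the genes tested) and 848 were higher with Fucotrim II (5.76%), which is 62.6% of the called genes. The differences were modest. Called genes had a median log2 fold change of 0.48 in size, and only 20 genes higher with Fucotrim I and 81 higher with Fucotrim II were called with a size over 1. The median over all genes tested was 0.00. For 6145 genes (41.8%), the CPM of the 3 Fucotrim I libraries did not overlap with the CPM of the 2 Fucotrim II libraries, and all 1354 called genes were among them. The number of called genes depended on single libraries. It was 872, 401 and 348 without Fucotrim I replicate 1, 2 or 3, and 2931 without Fucotrim II replicate 1, where the single library left was assumed to vary like those of Fucotrim I.

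**Figure D1:**
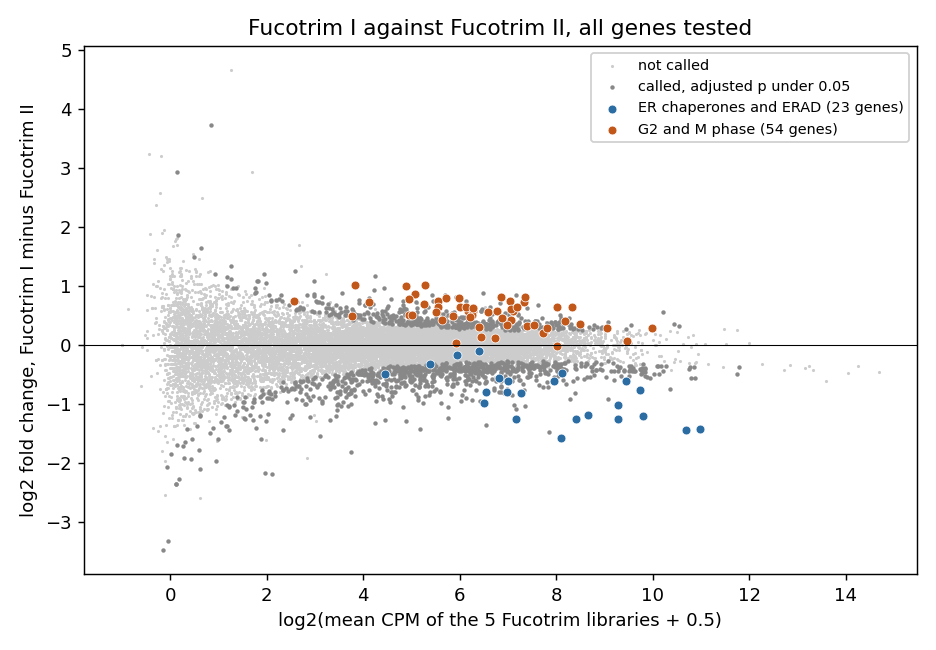
Log2 fold change between Fucotrim I and Fucotrim II (vertical axis) against the log2 of the mean CPM plus 0.5 over the 5 Fucotrim libraries (horizontal axis), with a point for each of the 14718 genes tested. Dark grey points are the called genes, blue points the 23 ER chaperone and ERAD genes, all under 0, and orange points the 54 genes of G2 and M phase, 53 of them above 0.

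DMSO was then used to see which inhibitor had changed each of these genes. Each inhibitor was fitted alone with the same 3 DMSO libraries. Against DMSO, 3154 genes were higher (21.4%) and 3054 lower (20.8%) with Fucotrim I, and 3838 were higher (26.1%) and 3614 lower (24.6%) with Fucotrim II. The largest class, at this threshold, was a larger change with Fucotrim II in a shared direction. Among the 453 genes that also passed a log2 fold change of 0.58, with the same demand on the calls against DMSO, Fucotrim II alone was the largest class with 257 genes and the shared direction held 95. Of the 848 genes higher with Fucotrim II, 440 (51.9%) were raised by both inhibitors and further by Fucotrim II, 253 (29.8%) were called against DMSO with Fucotrim II alone, and 89 (10.5%) with Fucotrim I alone, in which case they were lower than in DMSO. Of the 506 genes higher with Fucotrim I, 318 (62.8%) were lowered by both inhibitors and further by Fucotrim II, 139 (27.5%) were lowered by Fucotrim II alone and 32 (6.32%) were raised by Fucotrim I alone. A larger change with Fucotrim I in the same direction was found for 18 and 8 genes. Finally, 47 genes were called in opposite directions against DMSO. Of these, 43 were lower with Fucotrim I and higher with Fucotrim II, and 4 were the other way round. With the log2 fold change of 0.58 also demanded, 2 genes were called in opposite directions. At an adjusted p under 0.01, 23 genes were. These numbers moved with single libraries. Genes changed by both in a shared direction, 784 in all, numbered 188 without Fucotrim I replicate 3 and 1508 without Fucotrim II replicate 1, and genes called in opposite directions 36 and 79.

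**Figure D2:**
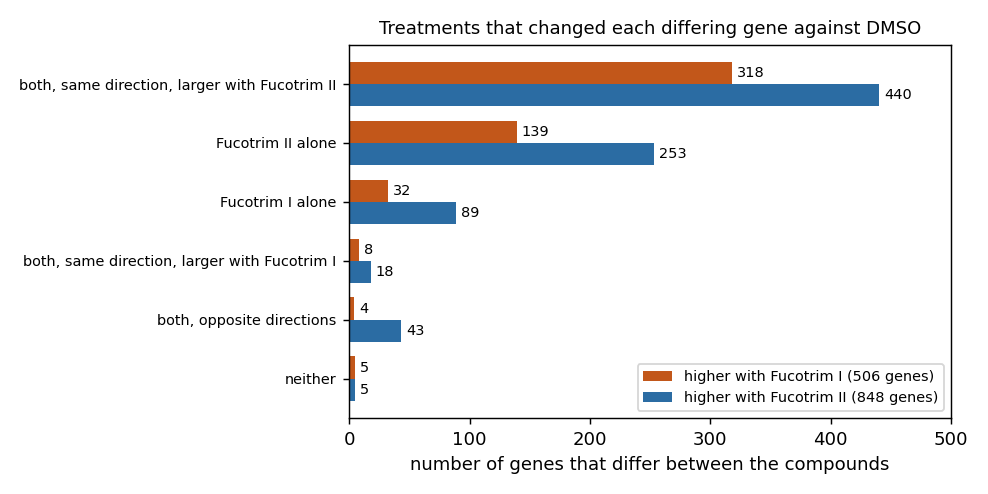
Number of genes that differed between the inhibitors (horizontal axis), split by which inhibitor changed them against DMSO (vertical axis), for the 506 genes higher with Fucotrim I (orange bars) and the 848 higher with Fucotrim II (blue bars). The longest bars, 318 and 440 genes, belong to genes changed by both inhibitors in the same direction and further by Fucotrim II.

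The ER chaperones and ERAD genes went against that pattern. Of 23 members tested, 20 were called higher with Fucotrim II and none higher with Fucotrim I, and the median log2 fold change was -0.79, a 1.73 times higher level with Fucotrim II. In all 23 the Fucotrim II libraries lay above the Fucotrim I libraries, as they did in 20.8% of all genes tested. Fucotrim I lowered the whole list, and Fucotrim II changed part of it. All 23 were lower than in DMSO with Fucotrim I (median -0.73), whereas with Fucotrim II 8 were higher than in DMSO, 2 were lower and 13 were not called (median 0.07). Of the 20 members that differed, 10 were called against DMSO with Fucotrim I alone, 8 in opposite directions and 2 in the same direction with a larger fall with Fucotrim I. Summed over the list, the level was 13047 to 13527 CPM in DMSO, 6438, 7026 and 6984 CPM with Fucotrim I and 14551 and 14831 CPM with Fucotrim II. The count of called members was 18 to 21 when any of the 5 libraries was left out, 20 with thinned counts and 20 without mitochondrially encoded genes.

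HSPA5 (NCBI gene 3309, hg38 chromosome 9 from 125234853 to 125241382, minus strand) encodes BiP, the main HSP70 chaperone of the ER lumen. It was at 1664, 1649 and 1604 CPM in DMSO, at 480, 651 and 643 CPM with Fucotrim I and at 1329 and 1361 CPM with Fucotrim II. The 3 groups of libraries did not overlap, and the log2 fold change between the compounds was -1.19 (standard error 0.12, edgeR adjusted p = 7.68e-05). HSPA5 was among the 2 members lowered by both inhibitors, by 1.47 with Fucotrim I and by 0.29 with Fucotrim II on the log2 scale. HSP90B1 (hg38 chromosome 12 from 103930107 to 103953931), the HSP90 of the ER, fell from 2730 to 2927 CPM in DMSO to 1111, 1307 and 1234 CPM with Fucotrim I. With Fucotrim II it was at 3432 and 3044 CPM, above each DMSO library but not called against DMSO (0.19, edgeR adjusted p = 0.0923). The difference between the compounds was -1.41 (standard error 0.10, edgeR adjusted p = 7.89e-06). HSP90B2P, a pseudogene copy of HSP90B1, had the like difference of -1.42 at a level of 18.8 to 60.1 CPM in the Fucotrim libraries. No stretch of 100 bases, the read length, was identical between them. Reads of HSP90B1 aligned to the copy with mismatches were not tested for, so this is not a separate result.

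CALR (hg38 chromosome 19 from 12938578 to 12944489), which encodes calreticulin, the lectin chaperone that binds newly made N-glycoproteins, was at 939, 1000 and 1023 CPM with Fucotrim I and at 2508 and 2803 CPM with Fucotrim II, around DMSO values of 2130 to 2222 CPM. It was called in opposite directions against DMSO (-1.13 and 0.29), and the compounds differed by -1.43 (standard error 0.09, edgeR adjusted p = 3.04e-06). MANF (hg38 chromosome 3 from 51385291 to 51389397), a secreted ER stress protein, showed the largest difference on the list. It was at 324, 315 and 313 CPM in DMSO, 147, 154 and 160 CPM with Fucotrim I and 436 and 474 CPM with Fucotrim II, so that no library of a group reached another group. Its log2 fold change between the compounds was -1.57 (standard error 0.08, edgeR adjusted p = 6.02e-07). CRELD2, an ER protein with a role in folding, was at 219, 213 and 226 CPM with Fucotrim I and 488 and 549 CPM with Fucotrim II, on either side of 320 to 362 CPM in DMSO (-1.24, standard error 0.08). Further members with large differences were PDIA4 (-1.25), PDIA3 (-1.01) and PDIA6 (-0.80), which encode protein disulphide isomerases, HYOU1 (-1.17), an exchange factor of BiP, and HERPUD1 (-1.25), a component of the ERAD machinery. HERPUD1 fell from 204 to 211 CPM in DMSO to 80.8, 99.5 and 96.9 CPM with Fucotrim I and was at 223 and 217 CPM with Fucotrim II. Of the exon bases of PDIA6, 25.2% lie opposite ATP6V1C2, and the strand setting of the counting is not given in the sources used here. The mRNA of XBP1, the transcription factor of the IRE1 branch, was at 192, 216 and 205 CPM with Fucotrim I and at 308 and 315 CPM with Fucotrim II, on either side of 232 to 251 CPM in DMSO (-0.61, standard error 0.08, edgeR adjusted p = 0.000624). SYVN1, the ubiquitin ligase of ERAD, behaved likewise (-0.78). The 3 members not called directly were DERL2 (-0.32), EDEM1 (-0.16) and DERL1 (-0.09).

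**Figure D3:**
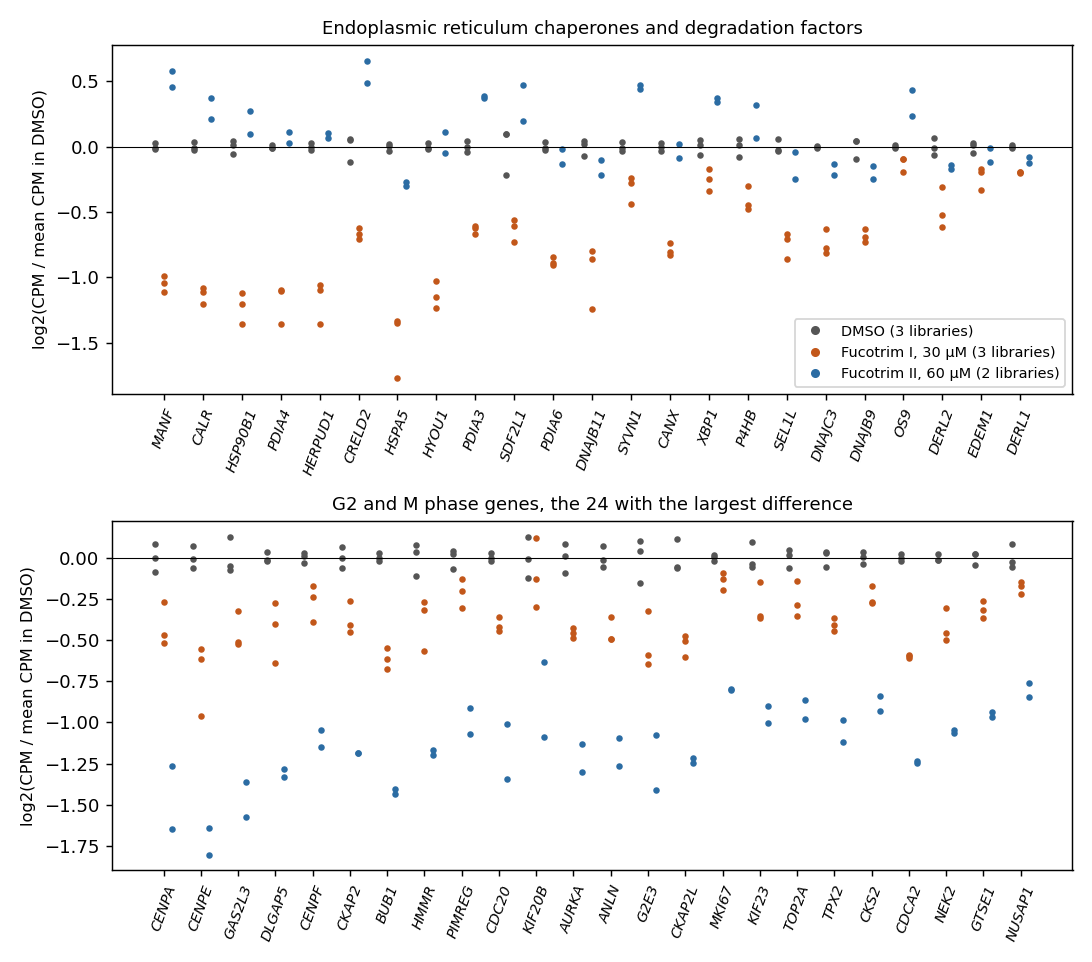
Level of each gene in each library as log2 of its CPM over the mean CPM in DMSO (vertical axis), for the 23 ER chaperone and ERAD genes (upper panel) and the 24 genes of G2 and M phase with the largest differences (lower panel), with a point per library. In the upper panel the Fucotrim I libraries (orange) lie lowest. The Fucotrim II libraries (blue) lie above them, called over DMSO (grey) for 8 genes and under it for 2, HSPA5 and DNAJC3. In the lower panel the Fucotrim II libraries lie lowest.

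The promoters of these genes are shown because the list is known to be driven by the ER stress response element (ERSE), which ATF6 and NF-Y bind. Promoters were taken from RefSeq (GRCh38.p14) as 300 bases, 250 before and 50 after each start, and 11579 of the 14718 genes tested had one. The element was searched on both strands as CCAAT followed, after 9 bases of any kind, by CCACG. It was found in 14 promoters (0.121%), among them 6 of the 21 promoters of the ER chaperone and ERAD list (28.6%). The stretches below hold the element with 10 bases on each side, on the strand of the gene, with the searched letters in capitals. CALR and CRELD2 hold it on the opposite strand, where it reads CGTGG first and ATTGG last. HSP90B1 holds a further copy on that strand, which is shown as well.
HSPA5 (chr9:125241381-125241419, minus strand): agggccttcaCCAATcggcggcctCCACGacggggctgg
HSP90B1 (chr12:103930206-103930244, plus strand): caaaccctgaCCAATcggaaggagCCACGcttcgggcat
HSP90B1, further copy (chr12:103930311-103930349, plus strand): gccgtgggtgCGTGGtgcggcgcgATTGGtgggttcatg
CALR (chr19:12938374-12938412, plus strand): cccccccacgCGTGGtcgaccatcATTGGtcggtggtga
CANX (chr5:179698768-179698806, plus strand): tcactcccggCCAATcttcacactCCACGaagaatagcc
CRELD2 (chr22:49918544-49918582, plus strand): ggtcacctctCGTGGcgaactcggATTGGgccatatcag
XBP1 (chr22:28800593-28800631, minus strand): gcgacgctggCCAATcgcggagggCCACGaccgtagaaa

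Of the 14 genes with this element, 10 (71.4%) were called higher with Fucotrim II and none higher with Fucotrim I, beside 5.76% and 3.44% of all genes. They were CALR, HSP90B1, CRELD2, HSPA5, CANX (-0.76) and XBP1 on the list, and outside it FICD (-0.54), which modifies BiP, ERO1B (-0.51), an ER oxidase, ALG12 (-0.43), a mannosyltransferase of the N-glycan precursor, and SERP1 (-0.38), a protein of the translocon. The 4 that were not called were TRIM5 (-0.40), TMEM120A (-0.27), EIF2A (-0.15) and ZNF17 (0.57). The 14 genes do not stand for 14 separate sites, since ALG12 and CRELD2 hold the same bases between head-to-head starts, as do SERP1 and EIF2A, and 42.3% of the exon bases of ALG12 lie opposite CRELD2 or a neighbouring transcript. A related element, ERSE-II, was searched as ATTGG followed, after 1 base of any kind, by CCACG, and was found in 12 promoters (0.104%), 3 of them on the list. None of these promoters was among the 14 with the longer element. ZNF143 and LOC644656, neither of them called, hold the same bases, so the 12 genes do not stand for 12 separate sites. The ERSE-II is shown for HERPUD1 and, with its letters on the opposite strand, for SDF2L1.
HERPUD1 (chr16:56932015-56932045, plus strand): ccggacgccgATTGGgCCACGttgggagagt
SDF2L1 (chr22:21642104-21642134, plus strand): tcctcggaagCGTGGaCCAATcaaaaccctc
Of these 12 genes, 4 were called higher with Fucotrim II, namely HERPUD1, HYOU1, SDF2L1 (-0.98) and NUCB1 (-0.62), and PLS3 (0.27) was called higher with Fucotrim I. A match describes the letters in the window and does not show that a factor bound there.

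**Figure D4:**
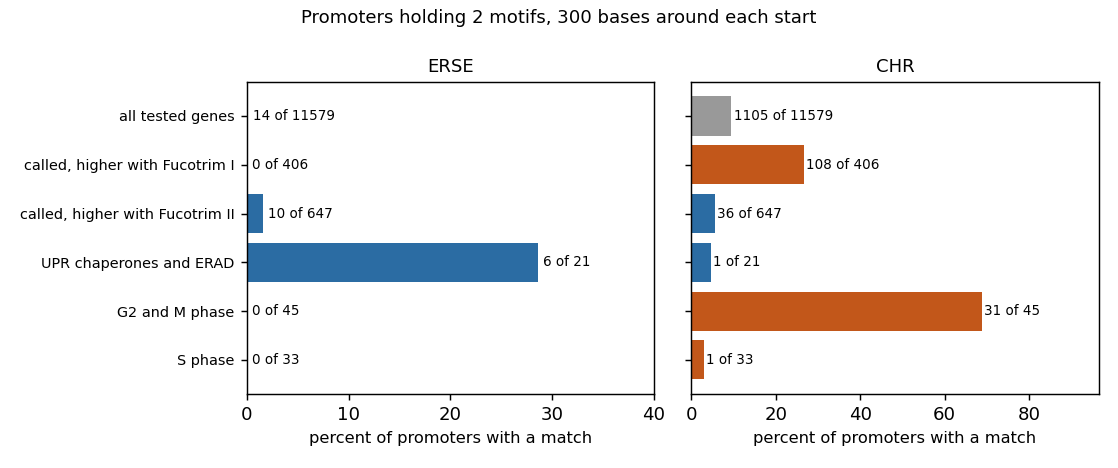
Percent of RefSeq promoters that hold the ERSE (left) or the CHR element (right), by set of genes (vertical axis), with the number of promoters beside each bar. The ERSE was found in 6 of 21 promoters of the ER chaperone list and in 10 of 647 of the genes higher with Fucotrim II, and the CHR in 31 of 45 promoters of the G2 and M phase list and in 108 of 406 of the genes higher with Fucotrim I.

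The ATF4 branch followed the ER chaperones in part. Of 20 members tested, 12 were called higher with Fucotrim II and none higher with Fucotrim I (median log2 fold change -0.44). Against DMSO, 17 were lower and 1 higher with Fucotrim I, and 9 were lower, 4 higher and 7 not called with Fucotrim II (median -0.11). Without Fucotrim I replicate 3, 6 members were called. DDIT3 (hg38 chromosome 12 from 57516588 to 57521737), which encodes CHOP, was at 70.7, 77.2 and 73.5 CPM in DMSO, 27.4, 38.4 and 38.2 CPM with Fucotrim I and 83.5 and 78.7 CPM with Fucotrim II (-1.23, standard error 0.12, edgeR adjusted p = 9.08e-05). It was lower than in DMSO with Fucotrim I and was not called with Fucotrim II (0.14). Of its exon bases, 31.6% lie opposite MARS1 and MBD6. ATF4 itself was at 260, 267 and 276 CPM with Fucotrim I and 406 and 413 CPM with Fucotrim II, both under the 463 to 472 CPM of DMSO (-0.61, standard error 0.08). CHAC1, a glutathione-degrading enzyme and ATF4 target, was lowered by both inhibitors from 12.9 to 14.5 CPM in DMSO to 2.48, 3.61 and 2.47 CPM with Fucotrim I and to 4.85 and 5.30 CPM with Fucotrim II. Its difference of -0.82 (edgeR adjusted p = 0.0354) lost its call in 6 of 17 alternatives, among them the thinned counts and leaving out Fucotrim I replicate 1 or 3. SLC7A11, the cystine transporter, was likewise lowered by both (-2.03 and -1.34 against DMSO) and differed by -0.69, a call lost without Fucotrim I replicate 3. SLC3A2 (hg38 chromosome 11 from 62856004 to 62888880) encodes the heavy chain that SLC7A11 and other amino acid transporters share, and it went another way. It was at 173, 181 and 183 CPM in DMSO, 132, 133 and 138 CPM with Fucotrim I and 338 and 403 CPM with Fucotrim II. The difference of -1.47 (standard error 0.09, edgeR adjusted p = 1.71e-06) came from a fall by 0.42 with Fucotrim I and a rise of 1.05 with Fucotrim II. NUPR1, a stress-induced chromatin protein, was also called in opposite directions (-0.44 and 0.57). Of 19 aminoacyl-tRNA synthetases, 5 were called higher with Fucotrim II, beside 5.76% of all genes tested, and none higher with Fucotrim I (median -0.10). AARS1 (-0.59) and SARS1 (-0.53) came first, and 2 were called without Fucotrim I replicate 2 or 3.

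Of the 47 genes called in opposite directions, 32 belonged to no list and 15 to a list. These were 8 of the ER chaperones, 3 of cholesterol synthesis and uptake, 2 of the ATF4 branch and 2 of N-glycan assembly. The 32 include HSP90B2P, whose reads were not told apart from those of HSP90B1. CRELD1 (hg38 chromosome 3 from 9933793 to 9945413), the relative of CRELD2 anchored in the ER membrane, was at 83.9, 80.0 and 83.1 CPM in DMSO, 55.1, 58.4 and 59.1 CPM with Fucotrim I and 150 and 142 CPM with Fucotrim II (-1.34, standard error 0.08, edgeR adjusted p = 1.71e-06). Of its exon bases, 30% lie opposite PRRT3 and 22.5% are shared with another transcript of the same strand. SLC6A9 (hg38 chromosome 1 from 43991500 to 44031467), a glycine transporter, was at 20.4 to 21.0 CPM in DMSO, 14.4, 13.2 and 13.7 CPM with Fucotrim I and 33.4 and 32.7 CPM with Fucotrim II (-1.26, standard error 0.11). LAMP3 (hg38 chromosome 3 from 183122215 to 183163839), a lysosomal membrane protein, had the largest difference of the opposite genes. It was at 2.37, 2.57 and 2.76 CPM in DMSO, 1.28, 1.74 and 1.24 CPM with Fucotrim I and 5.80 and 6.98 CPM with Fucotrim II (-2.16, standard error 0.23, edgeR adjusted p = 0.000139). CCNP, a gene of the cyclin family, was at 5.84 to 7.01 CPM in DMSO, 3.55, 4.81 and 5.52 CPM with Fucotrim I and 12.2 and 14.5 CPM with Fucotrim II (-1.54, standard error 0.18). In each of these genes the DMSO libraries lay between those of the compounds. The 4 genes raised by Fucotrim I and lowered by Fucotrim II were CA8 (0.79), THBS1 (0.72), PIK3R1 (0.61) and ELOVL2 (0.56).

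Genes of cholesterol synthesis and uptake were also higher with Fucotrim II. Of 23 genes, 13 were called higher with Fucotrim II, beside 5.76% of all genes tested, and none higher with Fucotrim I. The median was -0.48, and all 23 had negative values. With Fucotrim I 15 were lower than in DMSO and 1 was higher, and with Fucotrim II 8 were higher, 3 were lower and 12 were not called. Of the 13 genes that differed, 7 were called against DMSO with Fucotrim I alone, 2 with Fucotrim II alone, 3 in opposite directions and 1 in the same direction. Without Fucotrim I replicate 2 or 3, 8 genes were called. SQLE, the squalene epoxidase, was at 44.2, 41.1 and 42.1 CPM in DMSO, 26.2, 26.9 and 22.9 CPM with Fucotrim I and 53 and 43.8 CPM with Fucotrim II (-0.93, standard error 0.11, edgeR adjusted p = 0.000335). HSD17B7 (-0.86) and MVK (-0.51), enzymes of the pathway, were called in opposite directions against DMSO.

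In the pathway that the compounds were made to enter, the target itself was not called. GMDS (hg38 chromosome 6 from 1623806 to 2245605), the intended target, was at 14.7, 13.3 and 14.7 CPM with Fucotrim I, 12.5 and 17.0 CPM with Fucotrim II and 15.2 to 16.4 CPM in DMSO. Its difference was -0.06 with a 95% interval of -0.37 to 0.26, and it was called against DMSO with neither inhibitor. GFUS, the next enzyme of the route, had at most 0.659 CPM in any library, from 3 to 11 counts. The synthetase gene VARS1 likewise had at most 6 counts in any library. Whether reads of such genes were lost in alignment or counting was not tested, so these counts do not show that GFUS is silent. Of 15 genes of GDP-fucose and GDP-mannose metabolism, 4 were called higher with Fucotrim II, beside 5.76% of all genes tested, and none higher with Fucotrim I (median -0.16, and 0.03 without Fucotrim II replicate 2), with 2 called without Fucotrim I replicate 2 or 3. The largest difference belonged to DPM3 (hg38 chromosome 1 from 155139891 to 155140595), a subunit of dolichol-phosphate mannose synthase, which uses GDP-mannose. It was at 26.3, 27.3 and 32.2 CPM in DMSO, 55.4, 44.2 and 55.3 CPM with Fucotrim I and 86.9 and 104 CPM with Fucotrim II (-0.89, standard error 0.11, edgeR adjusted p = 0.000435), a rise with both inhibitors. GMPPA (hg38 chromosome 2 from 219498865 to 219513898), the regulatory subunit of the enzyme that makes GDP-mannose, was at 24.7 to 28.1 CPM in DMSO, 28.9, 27.1 and 27.6 CPM with Fucotrim I and 41.7 and 49.5 CPM with Fucotrim II (-0.71, standard error 0.10), and was raised by Fucotrim II alone. PMM1 (-0.41), a phosphomannomutase, and SLC35C2 (-0.28), a transporter of the Golgi, were the others called. GMPPB, the catalytic partner of GMPPA, was not called (0.07). None of 10 fucosyltransferase and fucosidase genes that passed the filter was called (median 0.03). FUT8, the enzyme of core fucosylation, differed by 0.17 (95% interval -0.12 to 0.45) and POFUT1, which adds fucose to Notch, by 0.07 (95% interval -0.15 to 0.29). Of 36 genes of N-glycan assembly and trimming, 10 were called higher with Fucotrim II and none higher with Fucotrim I (median -0.15). They were led by ALG5 (-0.55), a glucosyltransferase of the precursor, and DDOST (-0.45) and RPN1 (-0.44), subunits of oligosaccharyltransferase. Fewer were called with a library left out, namely 4, 3 and 1 genes without Fucotrim I replicate 1, 2 or 3. The DDOST call was lost without replicate 2 or 3, and its values ranged from -0.53 to -0.37 over the alternatives run.

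The genes of G2 and M phase formed the largest group higher with Fucotrim I. Of 54 members, 43 were called higher with Fucotrim I, beside 3.44% of all genes tested, and none higher with Fucotrim II. The median log2 fold change was 0.58, a 1.49 times higher level. Both compounds lowered the list. Against DMSO, 44 members were lower and 1 was higher with Fucotrim I (median -0.32), and 51 were lower with Fucotrim II (median -0.88). Of the 43 members that differed, 38 were lowered by both inhibitors and further by Fucotrim II and 5 by Fucotrim II alone. The summed level was 9814 to 10133 CPM in DMSO, 8350, 8634 and 8494 CPM with Fucotrim I and 6275 and 6491 CPM with Fucotrim II. When any of the 5 libraries was left out, 29 to 46 members were called, the fewest without Fucotrim I replicate 3, and with thinned counts 44 were called. In bulk samples, fewer cells in G2 and M phase and less RNA of these genes per cell cannot be told apart.

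CENPE (hg38 chromosome 4 from 103105349 to 103198445), the kinesin that carries chromosomes to the spindle equator, was at 77.4, 81.5 and 74.4 CPM in DMSO, 40.0, 52.9 and 50.7 CPM with Fucotrim I and 24.9 and 22.3 CPM with Fucotrim II (1.02, standard error 0.13, edgeR adjusted p = 0.000394). CENPA (hg38 chromosome 2 from 26764289 to 26801067), the histone H3 variant of centromeres, was at 16.1, 19.1 and 16.6 CPM with Fucotrim I and 9.59 and 7.37 CPM with Fucotrim II, under 21.7 to 24.4 CPM in DMSO (1.03, standard error 0.15). In both genes the 3 groups were separate, with Fucotrim II lowest. MKI67 (hg38 chromosome 10 from 128096659 to 128126423), which encodes the proliferation antigen Ki-67, was at 414, 407 and 417 CPM in DMSO, 387, 360 and 377 CPM with Fucotrim I and 237 and 236 CPM with Fucotrim II (0.66, standard error 0.08, edgeR adjusted p = 0.000307). Its fall with Fucotrim I was small (-0.14) beside that with Fucotrim II (-0.80). TOP2A, the topoisomerase of dividing cells, differed by 0.66 as well, and CDK1, the mitotic kinase, by 0.59. PLK1, a mitotic kinase outside the list, was at 112, 107 and 109 CPM with Fucotrim I and 54 and 63.9 CPM with Fucotrim II, under 126 to 136 CPM in DMSO (0.89, standard error 0.09). PRR11 (0.98) and PIF1 (0.94), a protein of mitotic cells and a DNA helicase, were among the 12 largest differences towards Fucotrim I once called genes averaging under 50 counts were left out, as were CENPA, CENPE, PLK1 and GAS2L3 (1.01), which binds the cytoskeleton in dividing cells.

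The promoters of G2 and M genes are known for the cell cycle homology region (CHR), which the DREAM complex binds. It was searched as TTTGAA on both strands of the same 300 bases and was found in 1105 of the 11579 promoters (9.54%), in 31 of 45 on the list (68.9%), in 108 of 406 of the genes higher with Fucotrim I (26.6%) and in 36 of 647 of the genes higher with Fucotrim II (5.56%). Of 33 S phase promoters, 1 held it (3.03%). On the list, the 31 genes with the element had a median log2 fold change of 0.59 with 26 called, and the other 23, some of them with no promoter in the table, had a median of 0.50 with 17 called. It is shown for 4 of the genes named above, in capitals with 10 bases on each side.
CENPA (chr2:26786028-26786053, plus strand): gagcgagcgaTTTGAAcgcgagcggc
MKI67 (chr10:128126455-128126480, minus strand): agcgccagaaTTTGAAtcttcgtttt
TOP2A (chr17:40418075-40418100, minus strand): agtggtgcctTTTGAAgcctctctag
CDK1 (chr10:60778160-60778185, plus strand): gtataataaaTTTGAActgtgccaat

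S phase genes differed less. Of 43 members, 9 were called higher with Fucotrim I and none higher with Fucotrim II (median 0.20), with 5 genes called without Fucotrim I replicate 1, 3 without replicate 2 or 3, and 16 without Fucotrim II replicate 1. E2F8, a repressor of the E2F family, was at 25.9, 25.7 and 25.5 CPM with Fucotrim I and 16.9 and 16.4 CPM with Fucotrim II, under 34.0 to 35.2 CPM in DMSO (0.63, standard error 0.11). PCNA, the sliding clamp of replication, differed by 0.14 (95% interval -0.05 to 0.34) and MCM5, a subunit of the replicative helicase, by 0.14 (95% interval -0.05 to 0.34), and neither was called. Of 19 G1 cyclins and CDK inhibitors, CDKN1A, RB1 (0.38) and CDK6 (0.35) were called higher with Fucotrim I, beside 3.44% of all genes tested. None was called higher with Fucotrim II (median 0.14). When any of the 3 Fucotrim I libraries was left out, 1 gene of the list was called. CDKN1A, which encodes the CDK inhibitor p21, was at 136, 140 and 145 CPM in DMSO, 203, 189 and 199 CPM with Fucotrim I and 112 and 141 CPM with Fucotrim II (0.64, standard error 0.10, edgeR adjusted p = 0.00171). Fucotrim I alone raised it. CDKN1B, which encodes p27, was raised by both inhibitors (0.28 and 0.34 against DMSO), and its difference was -0.06 (95% interval -0.23 to 0.10). Of 20 p53 targets, 4 were called higher with Fucotrim I and 2 higher with Fucotrim II (median 0.18). In these directions, 3.44% and 5.76% of all genes tested were called. The numbers on the list were 2 and 1 without Fucotrim I replicate 2 or 3. TIGAR (0.88), a regulator of sugar metabolism, MDM2 (0.42), the ubiquitin ligase of p53, and RRM2B (0.40), a ribonucleotide reductase subunit, were lowered by Fucotrim II alone. GDF15 (-0.67), a stress cytokine, was raised by Fucotrim II alone, and BBC3 (-0.38), the death-promoting protein PUMA, by both and further by Fucotrim II, a call lost without Fucotrim I replicate 2 or 3 or Fucotrim II replicate 2.

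**Figure D5:**
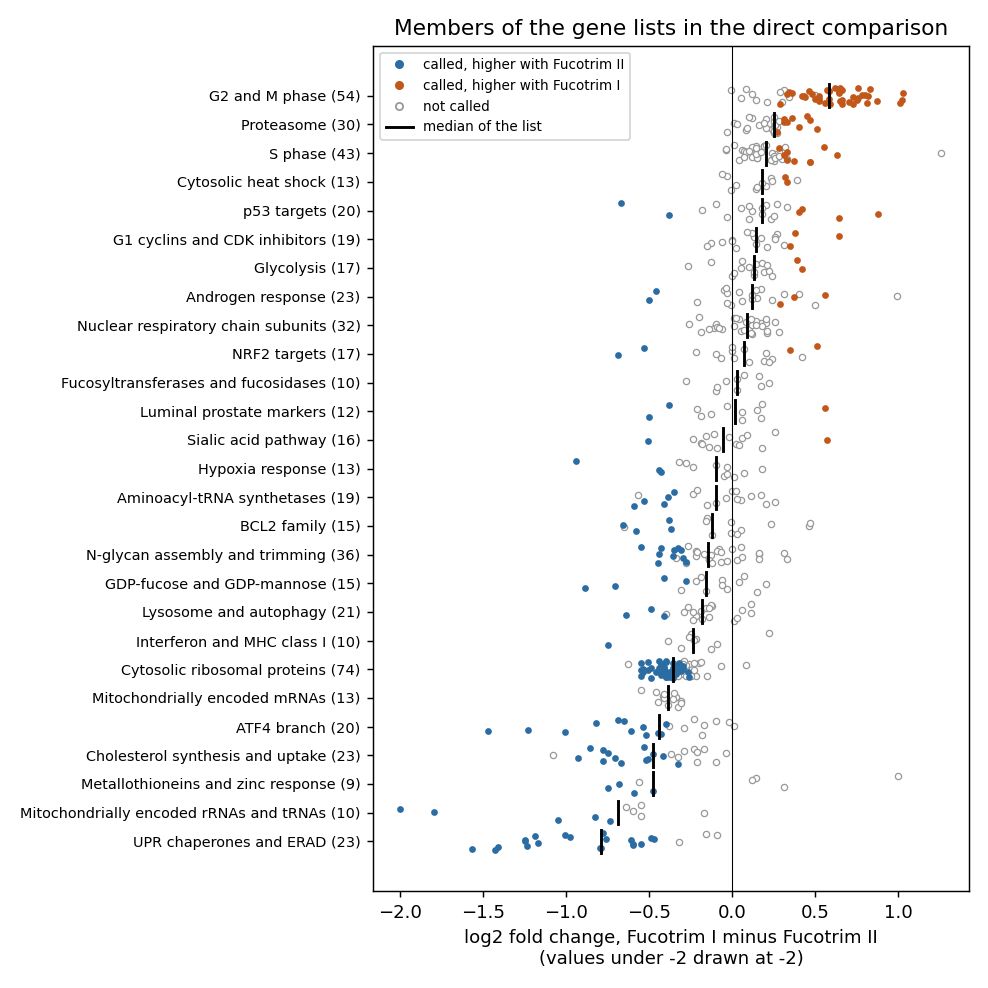
Log2 fold change between Fucotrim I and Fucotrim II (horizontal axis) of each member tested of 27 gene lists (vertical axis, number of members tested in brackets), ordered by their medians (black bars). Filled points are called genes, blue where higher with Fucotrim II and orange where higher with Fucotrim I, and open points were not called. A value under -2 is drawn at -2. The medians run from -0.79 for ER chaperones and ERAD to 0.58 for G2 and M phase.

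Androgen-regulated genes differed in both directions. Against DMSO, 13 of 23 were higher and 1 lower with Fucotrim I, and 12 were higher and 4 lower with Fucotrim II. Between the compounds, 3 were called higher with Fucotrim I and 2 higher with Fucotrim II, beside 3.44% and 5.76% of all genes tested (median 0.12), and none of the 3 was called without Fucotrim I replicate 2 or 3. TMPRSS2, an androgen-induced protease, was at 28.2 to 29.5 CPM in DMSO, 78.4, 74.8 and 71.7 CPM with Fucotrim I and 78.6 and 74.8 CPM with Fucotrim II, so that the compounds overlapped (-0.03, 95% interval -0.21 to 0.15). KLK3 (hg38 chromosome 19 from 50854915 to 50860764), which encodes prostate-specific antigen, was at 27.0 to 31.7 CPM in DMSO, 58.2, 75.8 and 66.8 CPM with Fucotrim I and 47.4 and 43.5 CPM with Fucotrim II (0.56, standard error 0.11, edgeR adjusted p = 0.00815). The call was lost without Fucotrim I replicate 2 or 3 (edgeR adjusted p up to 0.0645). KLK2, its neighbour and relative, was not called (0.17, 95% interval -0.06 to 0.41). FKBP5 (0.29), a co-chaperone of steroid receptors, was called, and lost the call without any of the 3 Fucotrim I libraries. SLC45A3 (-0.50), the luminal protein prostein, was called higher with Fucotrim II, a call lost without Fucotrim I replicate 3. Of the 12 luminal markers, KLK3 was called higher with Fucotrim I, and SLC45A3 and FOLH1 (-0.38), the prostate-specific membrane antigen, were called higher with Fucotrim II, with a median of 0.01 over the list, and the FOLH1 call was lost without Fucotrim I replicate 1 or 3. CHGB (-0.43), a granin of neuroendocrine cells, was called higher with Fucotrim II, a call lost in 3 alternatives, among them leaving out Fucotrim I replicate 2, and SYP (-0.30) was not called.

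Transcripts of cytosolic ribosomal proteins differed in a single direction, with calls that depended on the libraries used. Of 74 genes, 73 had negative values (median -0.36). Among them 52 were called higher with Fucotrim II, beside 5.76% of all genes tested, and none was called higher with Fucotrim I. Both inhibitors raised them, 62 with Fucotrim I (list median 0.29) and 72 with Fucotrim II (list median 0.66). RPL13A was at 1117 to 1152 CPM in DMSO, 1653, 1489 and 1587 CPM with Fucotrim I and 2098 and 2511 CPM with Fucotrim II (-0.55, standard error 0.10), and has processed copies among which reads could be split. The number of calls changed with the libraries used. The median log2 fold change stayed similar without Fucotrim I replicate 2 or 3. Without Fucotrim I replicate 2 or 3, 1 of the 74 genes was called, at medians of -0.33 and -0.37, and without Fucotrim II replicate 1, 71 were. In contrast, 9 of 30 proteasome subunits were called higher with Fucotrim I, beside 3.44% of all genes tested, and none higher with Fucotrim II (median 0.25). They were led by PSMD14 (0.51) and PSMD1 (0.47), subunits of the regulatory particle. Without Fucotrim I replicate 1, 2 or 3, 6, 2 and 2 were called, and 17 without Fucotrim II replicate 2. Against DMSO, 13 were lower with Fucotrim I, at a list median of -0.11, and 22 with Fucotrim II, at a list median of -0.36. None of 32 nuclear respiratory chain genes was called (median 0.09).

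The mitochondrially encoded mRNAs varied between libraries of the same compound. Their summed level was 77162, 107082 and 132548 CPM with Fucotrim I and 162848 and 115217 CPM with Fucotrim II, above 50329 to 59950 CPM in DMSO. None of the 13 was called between the compounds (median -0.39), and the libraries overlapped for 12 of them, but 8 were called higher with Fucotrim II without Fucotrim II replicate 2. Of 10 mitochondrial rRNAs and tRNAs that passed the filter, 5 were called higher with Fucotrim II (median -0.69), and 2 without Fucotrim I replicate 2. TRNY, a tRNA of the mitochondrial genome, was at 0.863 to 2.52 CPM in DMSO, 5.74, 3.87 and 10.2 CPM with Fucotrim I and 21.7 and 23.3 CPM with Fucotrim II (-1.80, standard error 0.28, edgeR adjusted p = 0.00525, and 0.0926 with no filter on low counts). TRNM had at most 2 counts in each DMSO and Fucotrim I library, too few for a fold change, and 0.829 and 0.949 CPM with Fucotrim II. It passed the filter through its 14 and 17 counts with Fucotrim II. The 5 calls and the median of this list therefore include a gene let in by the group where it is high.

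Beyond these lists, the largest differences among called genes with at least 50 counts on average were mostly in genes of low level. SNAR-G1, a small noncoding RNA of a family with many similar copies, was at 0.539 to 0.860 CPM in DMSO, 1.56, 1.4 and 1.81 CPM with Fucotrim I and 6.63 and 7.76 CPM with Fucotrim II (-2.18, standard error 0.21), and its reads could be split among copies. LCN12, a lipocalin, was at 1.56 to 2.79 CPM in DMSO, 3.05, 2.81 and 2.31 CPM with Fucotrim I and 7.16 and 7.59 CPM with Fucotrim II (-1.43, standard error 0.19), a rise with Fucotrim II alone. BEST1, a chloride channel, varied within both treatments. It was at 7.58 and 3.13 CPM with Fucotrim II and at 0.993, 2.61 and 1.65 CPM with Fucotrim I (-1.59), 14.6% of its exon bases lie opposite FTH1, and the call was lost without Fucotrim I replicate 1 or 3 or Fucotrim II replicate 1. On the other side, SLC4A8 (hg38 chromosome 12 from 51391317 to 51515763), a bicarbonate transporter, was at 7.5 to 7.86 CPM in DMSO, 5.96, 7.42 and 8.32 CPM with Fucotrim I and 3.20 and 2.79 CPM with Fucotrim II (1.27, standard error 0.21, edgeR adjusted p = 0.0024). SLC16A7, a monocarboxylate transporter, was lowered by both inhibitors to 8.86, 11.6 and 7.74 CPM with Fucotrim I and 5.27 and 3.63 CPM with Fucotrim II (1.09, standard error 0.21), a call lost without Fucotrim I replicate 2. CYP4F8 (hg38 chromosome 19 from 15615218 to 15630639), a fatty acid hydroxylase of the prostate and seminal vesicle, was raised by Fucotrim I alone. It was at 9.49 to 9.70 CPM in DMSO, 18.7, 26.1 and 26.9 CPM with Fucotrim I and 11.0 and 10.1 CPM with Fucotrim II (1.18, standard error 0.16, edgeR adjusted p = 0.000701). SCGN (1.06), a calcium-binding protein, and PCAT14 (0.89), a long noncoding RNA of prostate tissue, were likewise raised by Fucotrim I alone, and both calls were lost without Fucotrim I replicate 2 or 3. SCGN shares 60.5% of its exon bases with another transcript of the same strand. DHRS2, a short-chain dehydrogenase, was at 129 to 143 CPM in DMSO, 24.7, 27.9 and 26.1 CPM with Fucotrim I and 13.7 and 19.1 CPM with Fucotrim II. Both compounds lowered it, and the difference of 0.67 (standard error 0.14) lost its call without Fucotrim I replicate 2 or 3.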

How the data were processed

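Single reads were trimmed (Cutadapt), aligned to hg38 (HISAT2) and assigned to genes (featureCounts) by the authors, who deposited the resulting counts as whole numbers, not normalized, for 27819 genes in each table. The annotation release, the strand setting and the treatment of reads with several matches are not given in the sources used here. The DMSO columns were identical in both tables. The tables of the other inhibitors were not used here. Library totals were between 12553094 and 19099194 counts.

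Genes were filtered with filterByExpr over 8 libraries (minimum count 10, minimum total 15), leaving 14718, and scaled by TMM. The 5 Fucotrim libraries were tested with the robust quasi-likelihood test of edgeR 4.0.16 in R 4.3.3, with Benjamini-Hochberg adjustment over all genes tested and a threshold of 0.05. The study itself used limma. Each inhibitor was also fitted alone with DMSO, and both of these comparisons share the 3 DMSO libraries. Standard errors came from the fold change and its F statistic. The steps were tested on simulated data. The labels call the libraries biological replicates. Alternatives were limma 3.58.1 (voom, with and without quality weights), DESeq2 1.42.0, other scalings, filters and thresholds, thinned counts, a replicate block, and leaving out each library.

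The members and the 29 gene lists were chosen with earlier results of these data known. Named genes were a set of fixed genes, the 12 called genes with the largest differences in each direction (mean of at least 50 counts, libraries not overlapping), up to 2 called genes per list and direction, and 6 genes called in opposite directions against DMSO. Further list members are named with their values, having been chosen after these were seen. Gene positions are from GENCODE on hg38, and promoters from RefSeq. Some members of the lists are not reported here by name.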

Additional observations from a re-analysis of the deposited data

Results flagged for a closer look

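For 6 genes the effect against DMSO differed in direction between the treatments, and they were chosen among the genes that were also called in the direct comparison, so the values below describe them and are no further test. The log2 fold change between Fucotrim I and Fucotrim II was -2.16 for LAMP3, -1.57 for MANF and -1.54 for CCNP. It was -1.34 for CRELD1, -1.26 for SLC6A9 and -1.24 for CRELD2. In each gene all 3 Fucotrim I libraries lay under, and both Fucotrim II libraries over, the 3 DMSO libraries. They were taken by the smaller of a gene's changes against DMSO, leaving out genes whose mean count was under 50, and CALR, SLC3A2 and HSP90B2P had larger direct differences than some of them (-1.43, -1.47 and -1.42).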

How the results depend on the processing

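No called named gene reversed its direction in the alternatives, whereas the uncalled GMDS (-0.26 to 0.19), GFUS (-0.74 to 0.05), POFUT1 (-0.02 to 0.16) and TXNRD1 (-0.04 to 0.03) changed sign, and the ER chaperone and ERAD list kept its direction in every alternative run. With 1 library left out, the genes that differed numbered 348 to 2931, those higher with Fucotrim I 105 to 1347 and those higher with Fucotrim II 243 to 1584. The genes moved by Fucotrim I alone then numbered 40 to 182, by Fucotrim II alone 84 to 1077, by both in the same direction 188 to 1508, in opposite directions 36 to 79 and by neither 0 to 85. The list medians ranged from -0.82 to -0.74 for ER chaperones (18 to 21 called) and from 0.55 to 0.63 for G2 and M phase (29 to 46 called). The GDP-fucose and GDP-mannose median went from -0.26 to 0.03, the BCL2 family median from -0.21 to 0.03 and the nuclear respiratory chain median from -0.01 (without Fucotrim II replicate 1) to 0.17. The causes were not tested.

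At an adjusted p under 0.01, 443 genes differed, 129 higher with Fucotrim I and 314 with Fucotrim II, of which Fucotrim I alone moved 65, Fucotrim II alone 126, both in the same direction 229, in opposite directions 23 and neither 0. With a log2 fold change beyond 0.58, the numbers were 453, 128 and 325, then 45, 257, 95, 2 and 54, with 27 G2 and M genes. With all 8 libraries in 1 fit they were 2539, 1163 and 1376, with 188 moved by Fucotrim I alone, 977 by Fucotrim II alone, 1249 by both and 84 by neither. limma-voom with quality weights gave 335 genes higher with Fucotrim I and 245 moved by Fucotrim II alone, and DESeq2 gave 24 moved by neither.

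Replicate numbers were shared by 2 pairs. Deviations of same-numbered libraries correlated at -0.31 and -0.28 by the title numbers and at 0.28 and -0.06 by the library names. With 2 Fucotrim II libraries their deviations mirror each other, so these values do not settle whether the numbers pair the samples, and the numbers were not used as a pairing. With the title numbers as replicate block, 355 genes differed (97 and 258 in each direction), with 27 G2 and M genes and 16 ER chaperone genes called. With the library-name numbers as replicate block, 2631 differed (1178 and 1453), with medians of -0.74 for ER chaperones and 0.63 for G2 and M phase. With counts thinned to the smallest library, 1203 genes differed.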

Other observations

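The next list held metallothioneins, which bind zinc and copper, and zinc-response genes. Of 9 genes tested, 5 had negative and 4 positive values, 4 were called higher with Fucotrim II by edgeR's quasi-likelihood test and none higher with Fucotrim I (median log2 fold change -0.48). MT1G was at up to 11 CPM in DMSO, 29, 22.7 and 23.4 CPM with Fucotrim I and 41.3 and 43.1 CPM with Fucotrim II (-0.75). MT1X differed by -0.68, with 18.6% of its exon bases shared with a neighbour. Of 13 genes of the hypoxia response, 3 were called higher with Fucotrim II, beside 5.76% of all genes tested (median -0.10). P4HA1, a collagen prolyl hydroxylase subunit of the ER, was at 51.9 to 54.4 CPM in DMSO, 48.3, 50.1 and 42.7 CPM with Fucotrim I and 89.4 and 91.6 CPM with Fucotrim II (-0.94), whereas the call of VEGFA (-0.44), the vascular growth factor, was lost without Fucotrim I replicate 1 or 2.

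Over all genes tested, 3.44% were called higher with Fucotrim I and 5.76% higher with Fucotrim II, and the shares in several of the following lists, of few genes each, lie near these. Of 21 lysosome and autophagy genes, 3 were called higher with Fucotrim II (median -0.18), led by GABARAPL1 (-0.64), an autophagosome protein, and 11 were called without Fucotrim II replicate 1. Of 15 BCL2 family genes, 4 were called higher with Fucotrim II (median -0.12), and none without Fucotrim I replicate 3. HLA-C (-0.75), an MHC class I chain, was the only call among 10 interferon and MHC genes (median -0.24). In the sialic acid pathway, 1 gene was called in each direction among 16 (median -0.05), namely ST6GAL1 (-0.51), a sialyltransferase, and NEU3 (0.57), a sialidase, whose call was lost in 9 of 18 alternatives. Of 17 NRF2 targets, 2 were called in each direction (median 0.07), and TXNRD1, thioredoxin reductase, differed by -0.00 with a 95% interval of -0.18 to 0.17. Glycolysis (2 of 17 called higher with Fucotrim I, median 0.13) and cytosolic heat shock genes (2 of 13, median 0.18) had no call without Fucotrim I replicate 2 or 3.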
